A study of Mus musculus with 30 samples.

Results

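Syt6, Ntsr1, Rprm and Thsd7b are genes used as markers of layer 6 corticothalamic neurons that encode working proteins of the cell rather than transcription factors. They were followed here in developing mouse cortex with and without Tbr1, as 4 of the 16553 genes measured on both kinds of microarray in the study. A gene was taken as measured where a probe set (the group of array probes that reports 1 transcript) named it and no other gene, and the probe set with the highest mean was used. All 4 genes were measured at both stages. The study set Tbr1 -/- animals (KO, homozygous null pups or embryos from crosses of heterozygotes) against wild type (WT), all on the CD1 background. Neocortex of embryos at E14.5, counted in days from the vaginal plug, gave 3 KO and 3 WT arrays. Brain tissue of newborns (P0.5) was split into frontal, parietal and occipital pieces, with 4 KO and 4 WT arrays for each. The null allele is carried by the whole animal and not by cortical neurons alone.

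Layer 6 corticothalamic neurons are deep-layer cortical neurons that send axons to the thalamus. Tbr1 is a T-box transcription factor that early-born cortical neurons make after their last division, and it is known to favour the layer 6 fate over the layer 5 fate. Syt6 encodes a synaptotagmin, a membrane protein of vesicle traffic. Ntsr1 encodes a G-protein-coupled receptor for the peptide neurotensin and is the gene most used to drive Cre in these neurons. Rprm encodes reprimo, a small membrane protein first described as a p53-induced mediator of cell cycle arrest. Thsd7b encodes a membrane protein with thrombospondin type 1 repeats.

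Syt6 and Thsd7b were the members that moved in opposite directions in KO tissue, and the bases just upstream of their start sites are shown for that reason. Each run is 250 bases on the coding strand, 5′ to 3′, from RefSeq on build GRCm38.p6, with CpG dinucleotides in capitals. The Syt6 run is chr3:103574995-103575244, on the plus strand, the first of the windows listed for this gene, and the Thsd7b run is chr1:129273054-129273303, also on the plus strand.
Syt6: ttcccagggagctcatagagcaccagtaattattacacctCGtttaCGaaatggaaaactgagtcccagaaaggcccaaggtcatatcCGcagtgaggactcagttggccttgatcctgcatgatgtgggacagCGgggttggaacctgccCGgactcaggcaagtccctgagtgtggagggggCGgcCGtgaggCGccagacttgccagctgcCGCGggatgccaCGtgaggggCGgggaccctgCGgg
Thsd7b: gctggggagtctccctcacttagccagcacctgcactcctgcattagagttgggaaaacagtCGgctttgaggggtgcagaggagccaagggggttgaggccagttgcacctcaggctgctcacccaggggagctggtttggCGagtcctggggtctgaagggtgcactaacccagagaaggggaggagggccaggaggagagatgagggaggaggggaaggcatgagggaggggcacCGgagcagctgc
The Syt6 run held 13 CpG dinucleotides at a G+C content of 60.4%, and the Thsd7b run held 3 at 62.8%. The runs upstream of Ntsr1 (chr2:180499726-180499975, plus strand) and Rprm (chr2:54085553-54085802, minus strand) held 18 and 13 CpG at 68.4% and 62.4%. Over all 32851 windows of this length in the table, the median was 6 CpG and 52.4%, so Thsd7b was the member with fewer CpG than the median. The T-box core GGTGTGA, searched on both strands, was in 0 of the 6 windows listed for the 4 members, and in 3.33% of all windows. No binding was measured here, and the core's absence says only that these letters are not in these windows.

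All values are log2 signals as the authors deposited them, and a difference of 1 is a doubling. The stages were measured on different array types, so levels are not compared between E14.5 and P0.5, nor between genes. Array medians lay within 5.12 to 5.15 at E14.5 and within 7.42 to 7.52 at P0.5. Precision is limited by the small number of arrays in a group. Nothing in the labels says that the arrays of a group came from separate animals, and p-values then measure only the spread between these arrays. Tbr1 itself was lower in KO than in WT arrays at both stages and still gave a signal in KO. It was 7.23 to 8.69 in KO and 8.89 to 9.36 in WT at E14.5, and 9.07 to 9.91 in KO and 9.73 to 10.6 in WT over the P0.5 arrays, where the groups lay apart within each region. Whether its probes lie inside the deleted part is not given in the sources used here. At P0.5 WT frontal replicate 4 and KO parietal replicate 2 stood apart from the others on the first principal component, at distances of 41.1 and 25.9 from 0 on a component holding 27.1% of the variance. At E14.5 KO replicate 1 did so, at 64.2. The mean of the Y-linked genes was low (5.09 to 5.99) in 8 of the P0.5 arrays and high (8.99 to 9.44) in 16. All 4 KO frontal arrays were low and all 4 WT frontal arrays were high, so genotype and Y-linked level cannot be told apart within frontal tissue alone. In parietal tissue 2 KO arrays and 1 WT array were low, and in occipital tissue 1 KO array was. In bulk tissue, fewer cells of a type and less RNA per cell cannot be told apart.

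Syt6 fell in KO frontal and parietal tissue at P0.5. In frontal tissue the WT arrays read 8.64, 8.85, 8.79 and 8.45, and the KO arrays read 7.61, 7.74, 7.77 and 7.60. Every KO frontal array lay below every WT array, an order found for 6.5% of all genes, and the lowest WT value was that of replicate 4. Syt6 fell by 1.0 log2 units in KO frontal tissue, which is 2.01-fold (95% CI -1.20 to -0.81, limma adjusted p = 7.36e-08). In that comparison 7.52% of the 19938 genes tested were called at an adjusted p under 0.05, 4.7% higher and 2.81% lower in KO, and 2 of the 4 members were called, 1 each way. The Syt6 difference was -0.99 with the Y-linked mean as a covariate (limma adjusted p = 1.04e-04) and -1.08 without the arrays that stood apart. Genotype and Y-linked level coincide in frontal tissue, so the covariate's slope rests mainly on the other regions.

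In parietal tissue the Syt6 signal was 8.48, 8.36, 8.21 and 8.34 in WT and 7.73, 7.87, 8.01 and 7.77 in KO. The groups again did not overlap, and groups lay apart with KO lower for 3.73% of all genes. Syt6 fell by 0.50 in KO parietal tissue (1.42-fold, limma adjusted p = 0.00205), where 2 of the 4 members were called, again 1 each way, and 1.81% of all genes, 1.06% higher and 0.747% lower in KO. Among parietal arrays with a high Y-linked level alone, 2 KO and 3 WT, the difference was -0.47 and was not called (limma adjusted p = 0.246). In occipital tissue the WT arrays read 8.10, 7.69, 7.94 and 7.87 and the KO arrays 7.75, 7.53, 7.64 and 7.72, and the groups overlapped. The occipital difference was -0.24 (95% CI -0.43 to -0.047, limma adjusted p = 0.296), and 0 of the 4 members and 1.34% of all genes were called there, with 10.8% of all genes at an unadjusted p under 0.05.

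The size of the Syt6 difference between KO and WT depended on the region. The KO minus WT difference in frontal tissue minus that in occipital tissue was -0.77 (SE 0.131), which limma called with an adjusted p = 0.00685. This interaction was called for 0.416% of all genes and for 1 of the 4 members. With the Y-linked covariate it was -0.76, near the threshold (limma adjusted p = 0.0495). Frontal against parietal tissue gave -0.50 and parietal against occipital tissue -0.27, neither called (limma adjusted p = 0.414 and 0.9999), in tests that called 0.01% of all genes each and 0 of the 4 members. At an unadjusted p under 0.05 these tests held 8.13% and 3.93% of all genes. Syt6 was 7.53 to 8.01 over the KO arrays and 7.69 to 8.10 in the WT occipital arrays, near the array medians of 7.42 to 7.52. Whether less room to fall in occipital tissue shaped the frontal against occipital contrast was not tested.

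Thsd7b rose in KO parietal and frontal tissue, the opposite of Syt6. The KO parietal arrays read 8.30, 8.14, 8.10 and 8.26 and the WT parietal arrays 7.84, 7.58, 7.31 and 7.62. The lowest KO array lay above the highest WT array, an order that 3.68% of all genes showed in parietal tissue. Thsd7b rose by 0.61 in KO parietal tissue (1.53-fold, SE 0.104, limma adjusted p = 8.53e-04). It was 0.63 without the arrays that stood apart, and 0.61 among the arrays with a high Y-linked level, where it was not called (limma adjusted p = 0.114).

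In frontal tissue Thsd7b read 7.94, 7.67, 7.76 and 7.89 in KO and 7.55, 7.68, 7.34 and 7.16 in WT. The groups overlapped by a narrow margin, WT replicate 2 lying just above KO replicate 2. Thsd7b rose by 0.38 in KO frontal tissue (1.30-fold, limma adjusted p = 0.0238), but this call did not hold under all alternatives. It was lost without KO frontal replicate 1 (adjusted p = 0.0974) or 4 (0.0871), without WT frontal replicate 3 (0.0738) or 4 (0.126), and with the Y-linked covariate (0.252), all by limma. WT frontal replicate 4, which stood apart, had the lowest Thsd7b value of all 24 arrays, and the difference was 0.29 without it. In occipital tissue the KO arrays read 8.17, 8.18, 8.10 and 8.09 and the WT arrays 8.16, 8.13, 7.94 and 8.21. These groups overlapped almost fully, at a difference of 0.023 (95% CI -0.19 to 0.24, limma adjusted p = 0.96). The Thsd7b interaction of parietal against occipital tissue was 0.59 (SE 0.147) and was not called (limma adjusted p = 0.418), so its regional contrast was not shown over all genes.

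**Figure D1:**
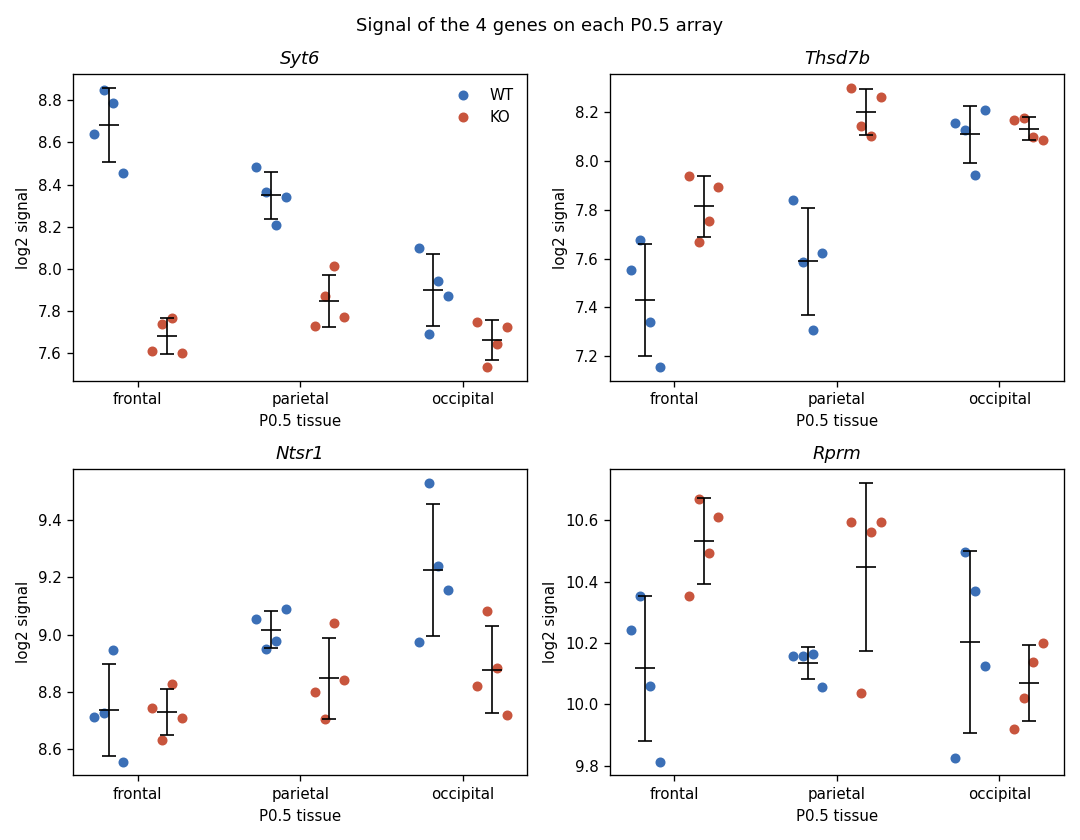
Log2 signal (vertical axis) of Syt6, Ntsr1, Rprm and Thsd7b on the 24 P0.5 arrays, by region and genotype, with 4 arrays a group, each point 1 array and bars the mean ± SD. Syt6 lies apart between KO and WT in frontal tissue (7.60 to 7.77 against 8.45 to 8.85), Thsd7b does so in parietal tissue (8.10 to 8.30 against 7.31 to 7.84), and Rprm and Ntsr1 overlap there.

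Ntsr1, the neurotensin receptor, was not called between KO and WT in any of the 3 regions. Its frontal arrays read 8.75, 8.63, 8.83 and 8.71 in KO and 8.71, 8.73, 8.95 and 8.56 in WT. The frontal groups overlapped throughout, with a difference of -0.0073 (95% CI -0.21 to 0.20, limma adjusted p = 0.966). In parietal tissue the KO arrays read 8.80, 8.71, 9.04 and 8.84 against 9.06, 8.95, 8.98 and 9.09 in WT, a difference of -0.17 with overlap (limma adjusted p = 0.704). In occipital tissue the KO arrays read 8.82, 9.08, 8.88 and 8.72 and the WT arrays 8.98, 9.53, 9.24 and 9.15. There 3 of the 4 KO arrays lay below every WT array, KO replicate 2 being the exception. The occipital difference was -0.35 (95% CI -0.55 to -0.14, limma adjusted p = 0.0909), and it was called without KO occipital replicate 2 (-0.42, adjusted p = 0.0488) or without WT occipital replicate 1 (-0.43, 0.0204).

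Rprm was not called between KO and WT in any region either, although it was near the threshold in frontal tissue. Its frontal arrays read 10.35, 10.67, 10.50 and 10.61 in KO and 10.24, 10.36, 10.06 and 9.81 in WT. The groups overlapped only through KO replicate 1 and WT replicate 2. The frontal difference was 0.41 (95% CI 0.15 to 0.68, limma adjusted p = 0.0503). It was called when array medians were subtracted (adjusted p = 0.04) and without WT frontal replicate 1 (0.0382) or 2 (0.0261), and it was 0.31 without WT frontal replicate 4 (0.227).

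In parietal tissue Rprm read 10.59, 10.04, 10.56 and 10.60 in KO and 10.16, 10.16, 10.16 and 10.06 in WT. KO parietal replicate 2, which stood apart over all genes, was the lowest of these 8 arrays, and the other 3 KO arrays lay above every WT array. The parietal difference was 0.31 (limma adjusted p = 0.379). Without the arrays that stood apart it was 0.45 and was called (limma adjusted p = 0.0276). Occipital arrays read 9.92, 10.02, 10.14 and 10.20 in KO and 9.82, 10.50, 10.37 and 10.12 in WT, overlapping at a difference of -0.13 (95% CI -0.40 to 0.13, limma adjusted p = 0.763).

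**Figure D2:**
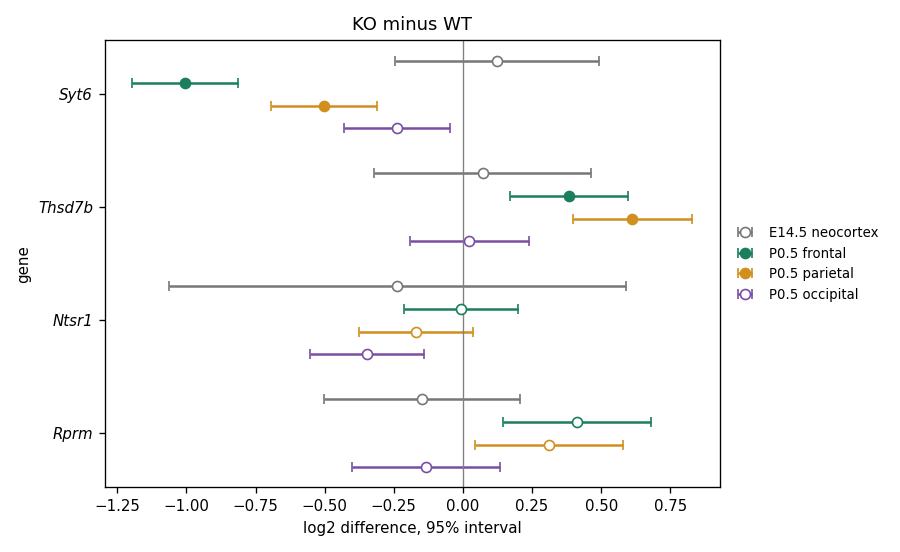
KO minus WT difference in log2 signal of the 4 genes at E14.5 and in each P0.5 region, with 95% confidence intervals and filled symbols for an adjusted p under 0.05. Syt6 is below 0 with filled symbols in frontal (-1.0) and parietal (-0.50) tissue, and Thsd7b is above 0 there at 0.38 and 0.61.

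Averaging the same-numbered arrays of the 3 regions gave 4 KO and 4 WT values per gene. Each KO number mixed arrays of high and low Y-linked level, so the KO values are not those of single animals. For Syt6 these were 7.70, 7.71, 7.81 and 7.70 in KO and 8.41, 8.30, 8.31 and 8.22 in WT, without overlap. Syt6 was lower by 0.58 in KO over the regions (limma adjusted p = 7.45e-06). The Thsd7b values were 8.14, 8.0, 7.99 and 8.08 in KO and 7.85, 7.80, 7.53 and 7.66 in WT, also apart, and Thsd7b was higher by 0.34 (limma adjusted p = 0.00523). The KO arrays were higher, or lower, without overlap for 7.21% and 5.31% of all genes, and 7.46% were called, 4.71% higher and 2.75% lower in KO. Ntsr1 differed by -0.18 (limma adjusted p = 0.0632) and Rprm by 0.20 (0.115), and neither was called. With the Y-linked mean as a covariate on these 8 values 0 of the 4 members were called, and Syt6 stood at -0.61 (limma adjusted p = 0.0506). In 1 fit of all 24 arrays with that covariate Syt6 was -0.58 and Thsd7b 0.35, both called. That fit counted the 3 arrays of a number as separate replicates, which the labels neither state nor deny.

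Other cell types moved beside these differences. Of the 4 astrocyte markers, 4 rose in KO frontal tissue and 4 over the regions, 0 in parietal and 1 in occipital tissue. Their mean signal was 7.96 to 8.88 in the KO frontal arrays and 7.66 to 8.10 in the WT frontal arrays. Layer 5 subcerebral markers rose in KO for 3 of 6 genes in frontal, 4 in parietal and 3 in occipital tissue, and 1 fell in frontal tissue. Subplate and layer 6b markers fell in KO for 3 of 6 genes in frontal, 1 in parietal and 0 in occipital tissue. The layer 5 markers averaged 9.75 to 10.04 in KO frontal and 9.51 to 9.70 in WT frontal arrays, and the subplate markers 7.5 to 7.85 and 7.88 to 8.23. Of 5 upper layer and callosal markers, 2 fell in KO frontal tissue, and 1 rose and 1 fell in parietal tissue. Of 4 blood vessel markers 1 fell in frontal tissue, where their mean was 7.64 to 8.31 in KO and 7.94 to 9.10 in WT arrays. Of 7 striatum markers, 1 rose and 1 fell in frontal tissue, 1 fell in parietal and 1 in occipital tissue, and 2 rose and 2 fell over the regions. Of 5 thalamus markers 1 rose in frontal tissue. Of the hippocampus and choroid plexus markers, 4 each, and the 6 GABAergic interneuron markers, 0 were called in any single region, and 1 interneuron marker rose over the regions. The part of these cell types in the Syt6 and Thsd7b differences was not tested.

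In WT tissue 3 of the 4 members differed between frontal and occipital pieces, where 6.03% of all genes were called, 2.26% higher and 3.77% lower in frontal tissue. Syt6 was higher in frontal than in occipital tissue by 0.78 (1.72-fold, limma adjusted p = 6.00e-06). Every WT frontal array (8.45 to 8.85) lay above every WT occipital array (7.69 to 8.10). Thsd7b ran the opposite way, lower in frontal tissue by 0.68 (limma adjusted p = 2.02e-04), with 7.16 to 7.68 in frontal and 7.94 to 8.21 in occipital arrays. The WT frontal Thsd7b values, like the WT parietal ones (7.31 to 7.84), lay near the array medians of 7.42 to 7.52. Whether that shaped the Thsd7b differences was not tested. Ntsr1 was lower in frontal tissue by 0.49 (limma adjusted p = 0.00426), with 8.56 to 8.95 against 8.98 to 9.53, also apart. Such orders were found for 6.21% of all genes with frontal tissue higher and 6.36% with it lower. In a fit of only the 8 arrays compared Ntsr1 kept the value of -0.49 but was not called (limma adjusted p = 0.0647). Rprm differed by -0.086 and its groups overlapped (limma adjusted p = 0.675).

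The WT parietal levels lay between the frontal and occipital ones for Syt6, Ntsr1 and Thsd7b. The means were 8.68, 8.35 and 7.90 for Syt6 from frontal through parietal to occipital tissue. They were 8.74, 9.02 and 9.22 for Ntsr1, and 7.43, 7.59 and 8.11 for Thsd7b. Frontal and parietal neighbours were not called for any of the 4 members, in a comparison that called 0.171% of all genes and held 12.9% at an unadjusted p under 0.05. Syt6 came nearest to a frontal and parietal difference at 0.33 (limma adjusted p = 0.169). Parietal and occipital tissue differed for 2 of the 4 members, where 0.451% of all genes were called, 0.256% higher and 0.196% lower in parietal tissue. Syt6 was higher in parietal tissue by 0.45 (limma adjusted p = 0.0184) and Thsd7b lower by 0.52 (0.0148).

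Both parietal and occipital calls depended on single arrays. The Syt6 call was lost without WT occipital replicate 2 (adjusted p = 0.115) or 4 (0.0677) and without WT parietal replicate 1 (0.0921), 2 (0.0623) or 4 (0.064). The Thsd7b call was lost without WT occipital replicate 4 (0.0701) and without WT parietal replicate 2 (0.05004) or 3 (0.102), all by limma. Choroid plexus markers varied widely over some of these pieces, with a mean of 6.47 to 8.52 over the WT occipital arrays and 6.49 to 6.63 over the WT frontal arrays. Of those 4 markers, 1 was called lower in WT frontal than in WT occipital tissue. In that comparison 2.26% of all genes were called higher and 3.77% lower. Of the 6 subplate and layer 6b markers 2 were called higher and 1 lower in WT frontal than in WT occipital tissue, with means of 7.88 to 8.23 and 8.09 to 8.32. For the interaction of frontal against occipital tissue 2 of these 6 were called, both below 0 as Syt6 was, and 0.416% of all genes. Of 7 striatum markers 1 was called higher in WT frontal tissue. The part of such tissue in the regional differences was not tested.

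The frontal to occipital order of Syt6 was not found in KO tissue. Its KO means were 7.68 in frontal, 7.85 in parietal and 7.66 in occipital tissue, with overlapping values. The KO frontal minus occipital difference was 0.018 (95% CI -0.17 to 0.21, limma adjusted p = 0.96), against 0.78 in WT, and the interaction given above (-0.77) is the test of that gap. Ntsr1 was lower in KO frontal tissue by 0.15 (95% CI -0.35 to 0.057) and was not called (limma adjusted p = 0.557). Thsd7b was 7.67 to 7.94 in KO frontal and 8.09 to 8.18 in KO occipital arrays, apart as for 5.33% of all genes. Its difference of -0.32 was not called (limma adjusted p = 0.102). Of the 4 members 1 was called in KO frontal against occipital tissue, where 3.22% of all genes were, 1.47% higher and 1.76% lower in frontal tissue. That member was Rprm, higher in frontal tissue by 0.46 (limma adjusted p = 0.0477), with 10.35 to 10.67 against 9.92 to 10.20, apart as for 4.8% of all genes.

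The Rprm call in KO tissue was lost when any 1 of 7 of the 8 arrays was left out, KO frontal replicate 1 being the exception, at adjusted p from 0.0562 to 0.142 by limma. It was lost too with the Y-linked covariate (0.123), and the Rprm interaction of frontal against occipital tissue was 0.55 and not called (limma adjusted p = 0.154). In KO tissue 0 of the 4 members were called between frontal and parietal pieces, where 0.236% of all genes were called and 8.11% were at an unadjusted p under 0.05. In that comparison Thsd7b differed by -0.39 (limma adjusted p = 0.14). Between KO parietal and occipital pieces 0 members and 0.351% of all genes were called, with 7.04% at an unadjusted p under 0.05. Rprm differed there by 0.38 (limma adjusted p = 0.356), and by 0.51 without KO parietal replicate 2, where it was called in a fit that also left out WT frontal replicate 4 (0.0458).

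**Figure D3:**
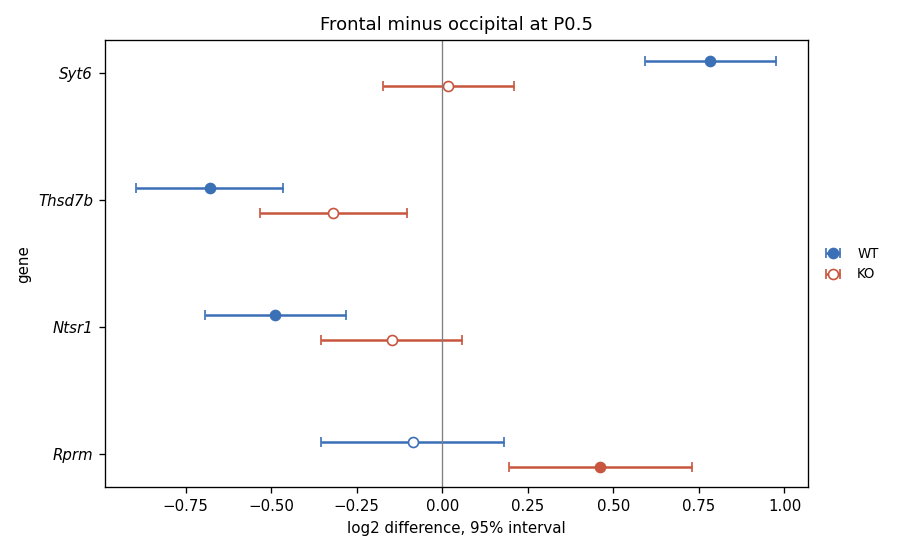
Frontal minus occipital difference in log2 signal at P0.5 within WT and within KO tissue for the 4 genes, with 95% confidence intervals and filled symbols for an adjusted p under 0.05. Syt6 frontal minus occipital is 0.78 in WT and 0.018 in KO, and Thsd7b is -0.68 and -0.32.

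At E14.5, when layer 6 neurons are newly born, 0 of the 4 members were called between KO and WT. In this comparison 0 of the 18194 genes were called by limma, and 5.76% were at an unadjusted p under 0.05. Syt6 read 5.95, 5.45 and 5.58 in KO and 5.56, 5.48 and 5.57 in WT, overlapping at a difference of 0.12 (95% CI -0.24 to 0.49, limma adjusted p = 0.968). Its KO spread came from replicate 1, the array that stood apart, and without it the difference was -0.018. Ntsr1 read 6.87, 5.39 and 6.0 in KO and 6.55, 6.09 and 6.33 in WT, and the KO arrays lay on both sides of the WT arrays (-0.24, 95% CI -1.06 to 0.59). Rprm read 10.40, 10.06 and 10.34 in KO and 10.54, 10.38 and 10.32 in WT (-0.15, 95% CI -0.50 to 0.21). Thsd7b read 7.24, 6.97 and 6.88 in KO and 7.00, 6.91 and 6.97 in WT (0.071, 95% CI -0.32 to 0.46). All 4 genes overlapped between genotypes. The Ntsr1 interval held each of its KO minus WT differences at P0.5. The Thsd7b interval held its frontal difference (0.38) and that over the regions (0.34), but not the parietal one (0.61). For Syt6 the interval held the occipital difference (-0.24), but not the frontal (-1.0) or parietal (-0.50) one or that over the regions (-0.58). For Rprm it held the occipital difference (-0.13) and that over the regions (0.20), but not the frontal (0.41) or parietal (0.31) one. The stages were measured on different array types, so a difference may not have the same size on both. Syt6 read 5.48 to 5.57 in WT at E14.5, near the array medians of 5.12 to 5.15. Whether little room to fall kept its E14.5 difference small was not tested. Of the other probe sets for Syt6 and Thsd7b, 3 and 2 in number, the highest mean was 4.64.

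**Figure D4:**
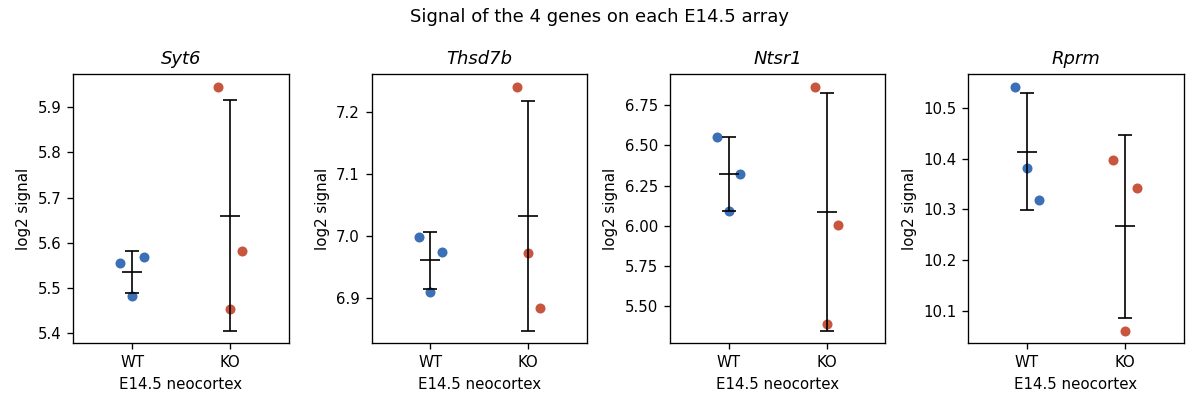
Log2 signal (vertical axis) of the 4 genes on the 6 E14.5 neocortex arrays, 3 KO and 3 WT, each point 1 array and bars the mean ± SD. KO and WT overlap for every gene, and Ntsr1 has the widest KO range, from 5.39 to 6.87.

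Most other genes of layer 6 corticothalamic neurons fell in KO tissue over the P0.5 regions. Of 9 such genes, Tbr1 among them, 6 fell in KO frontal tissue, 6 in parietal, 3 in occipital and 8 over the regions, and 0 rose. Of all genes 2.81%, 0.747%, 0.577% and 2.75% were called lower in these comparisons. Over the regions 1 of the 9 was not called, and at E14.5 0 of the 9 were called. With the Y-linked covariate the counts of falls were 5, 4 and 3 in the single regions, and without the arrays that stood apart 7, 5 and 4. The shares of all genes called in those fits were not computed. Tbr1 is the gene made null, and without it 7 of 8 fell over the regions. The list was chosen with earlier results of these data known, so its direction is no independent evidence. Its median difference over the regions was -0.49, that of the 4 members 0.011, and that of all genes -0.013. Tle4, a Groucho-type corepressor, fell by 1.02 over the regions (limma adjusted p = 9.15e-07). Wnt7b, a Wnt ligand, fell by 0.72, and Sox5, a transcription factor of deep-layer neurons, by 0.60. Hs3st4, a heparan sulfate sulfotransferase, fell by 0.49, Foxp2, a forkhead transcription factor, by 0.42 and Grik3, a kainate receptor subunit, by 0.29.

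Ppp1r1b, which encodes the phosphatase regulator DARPP-32, followed Syt6 with the highest Pearson r of these genes, 0.853 over the 24 arrays. That r takes in the differences of genotype and region, and no r within groups was computed for this pair. Ppp1r1b was 8.63 to 9.11 in WT frontal arrays, 8.32 to 8.65 in WT parietal and 7.61 to 7.93 in WT occipital arrays. In KO tissue it was 7.90 to 8.20, 7.82 to 8.22 and 7.64 to 7.95. So the WT frontal and occipital arrays lay apart and the KO ones overlapped, as for Syt6. Ppp1r1b was called for the interaction of frontal against occipital tissue (-0.81, limma adjusted p = 0.0136), as was Wnt7b (-0.85, 0.0279). With the Y-linked covariate neither was called, at -0.69 (adjusted p = 0.135) and -0.89 (0.105).

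Among relatives and partners of the members, 19 genes were measured at P0.5, and 4 rose and 1 fell in KO over the regions. Of all genes 4.71% were called higher and 2.75% lower there. Syt10, another vesicle synaptotagmin, fell by 0.78 in frontal, 0.69 in parietal and 0.62 in occipital tissue (limma adjusted p = 3.10e-04, 0.00269 and 0.011). Syt10 was dim, at 6.47 to 6.68 in KO frontal and 7.09 to 7.79 in WT frontal arrays, near or below the array medians of 7.42 to 7.52. Unlike Syt6, its interaction of frontal against occipital tissue was -0.16 and was not called (limma adjusted p = 0.613). Syt11 rose over the regions by 0.24, Syt1, the main calcium sensor of fast transmitter release, by 0.18 and Syt5 by 0.15. The other 8 synaptotagmins of the list measured there were not called over the regions.

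Thsd7a, the relative of Thsd7b, rose in KO frontal and parietal tissue as Thsd7b did. It was 9.67 to 10.06 in KO frontal and 8.17 to 8.86 in WT frontal arrays, a rise of 1.39 (limma adjusted p = 3.24e-07). In parietal tissue it rose by 0.69 (limma adjusted p = 0.00616), and in occipital tissue it differed by 0.067 (0.904). WT frontal tissue had less Thsd7a than WT occipital tissue (-0.69, limma adjusted p = 0.00394), as for Thsd7b (-0.68). In KO tissue the Thsd7a order turned, with frontal above occipital by 0.63 (limma adjusted p = 0.00901), while Thsd7b stayed at -0.32. The Thsd7a interaction was called (1.33, limma adjusted p = 0.0013, and 1.32 and called with the Y-linked covariate), and that of Thsd7b, at 0.36, was not (0.204).

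Nts, which encodes the ligand of Ntsr1, falls outside the rule for naming genes and was singled out after its values were seen. It was not called between KO and WT in any region, and its spread was wide, from 7.97 to 11.8 in the WT occipital arrays. Nts was lower in WT frontal than in WT occipital tissue (-2.51, limma adjusted p = 0.00388), where Ntsr1 was at -0.49. Nts was also lower in WT frontal than in WT parietal tissue (-3.37, limma adjusted p = 0.00108), a comparison in which Ntsr1 was at -0.28 and not called (0.301). Between WT parietal and occipital tissue neither was called, and the signs differed, at 0.85 for Nts and -0.21 for Ntsr1.

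**Figure D5:**
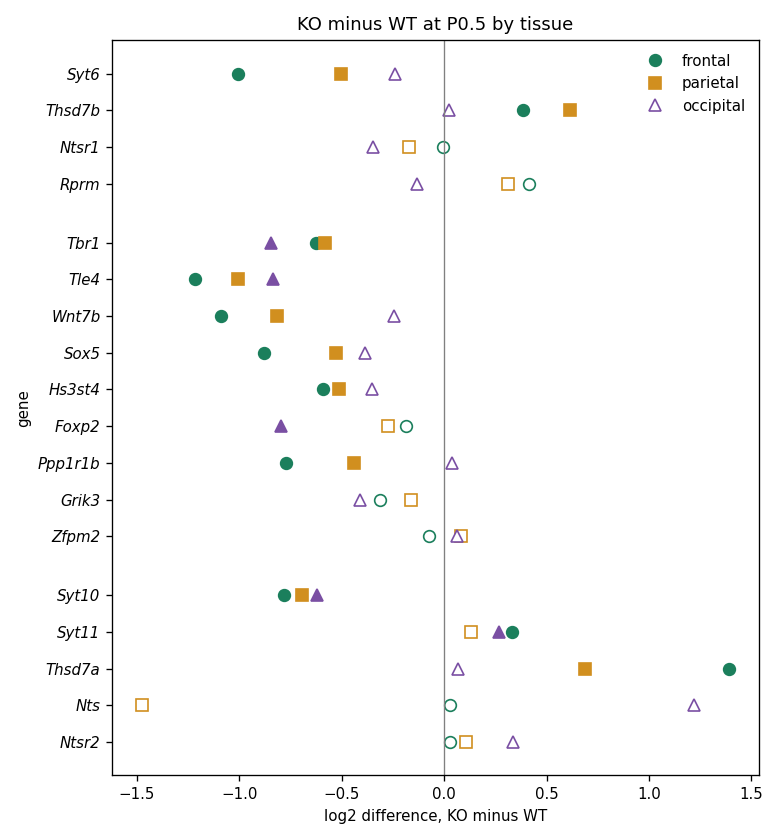
KO minus WT difference in log2 signal in each P0.5 region for the 4 members, 9 other layer 6 genes and 5 relatives or partners, with filled symbols for an adjusted p under 0.05 and open ones otherwise. Among filled symbols Tle4 (-1.22 in frontal tissue), Wnt7b (-1.09) and Syt6 (-1.0) reach farthest to the left, and Thsd7a (1.39) farthest to the right. The open parietal symbol of Nts lies farther left, at -1.48.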

How the data were processed

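The authors deposited log2 probe set signals, 1 column per array, and all columns were assigned to a sample. Per the submitters' processing notes, Affymetrix Expression Console 1.1 and RMA were used, with no step assigned to either. The E14.5 probe set names are those of an older array type than the Gene 1.0 ST array in the label protocol, so each stage had its own fit. Signals were not normalised again and no filter on dim genes was applied. Of 45101 probe sets at E14.5, 34958 named 1 gene, and 21789 of 35557 at P0.5. This gave 18194 and 19938 genes.

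Tests used limma 3.58.1 under R 4.3.3 (lmFit, and eBayes with an intensity trend) and were two-sided, with Benjamini-Hochberg adjustment over all genes of a comparison and calls under 0.05. The 24 P0.5 arrays formed 1 fit of 6 groups. For the comparison over regions, each genotype's 3 arrays of 1 number were averaged into 1 value, because a shared animal is neither stated nor denied in the labels. The fits were tested on simulated data first. The alternatives tried are given in the closing section.

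Residuals of same-numbered arrays were correlated over genes. All pairs were over 0.1 at E14.5 (0.125 to 0.445) and between WT parietal and WT occipital tissue (0.124 to 0.276), and at least 1 pair was not in each other comparison (lowest -0.471). Same-numbered arrays mixed high and low Y-linked levels across regions for 4 of 4 KO numbers and 1 of 4 WT numbers. The arrays of each of those numbers were therefore not all of 1 animal.

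The members and gene lists were chosen with earlier results of these data known. The members are named in every comparison. The other layer 6 genes, and the relatives and partners of the members, may be named where they were called between KO and WT. The genes most like a member are the 5 with the highest Pearson r over the P0.5 arrays. Upstream sequences came from a RefSeq table on GRCm38.p6 by gene symbol, and 4 members matched. They served only for sequence, since the build behind the arrays is not given in the sources used here.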

Additional observations from a re-analysis of the deposited data

Results flagged for a closer look

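Of the 24 P0.5 groups of 4 values tested for a single array far from its group, 2 had one, where chance gives about 1 in 20. Rprm read 10.04 in KO parietal replicate 2, far below the other KO parietal arrays, its gap being 0.943 of the group's range, above Dixon's critical value for 4 samples. That array also stood apart over all genes. Rprm read 10.06 in WT parietal replicate 4, at 0.929 of a range that was itself narrow (10.06 to 10.16).

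The Syt6 difference between KO and WT was not the same in frontal and occipital tissue, with an interaction of -0.77 by limma (adjusted p = 0.00685).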

How the results depend on the processing

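The Syt6 fall in KO frontal tissue and its frontal against occipital interaction kept their calls under every alternative run for them. So did the WT frontal to occipital differences of Syt6 and Thsd7b. For the Syt6 fall and interaction the alternatives did not include a fit of arrays with a high Y-linked level. Such a fit was not possible, since all 4 KO frontal arrays were low and all 4 WT frontal arrays high. With the replicate number as a block no count of members called changed (2 in frontal, 2 in parietal and 0 in occipital tissue, 2 over the regions, 0 at E14.5, 2 for WT parietal against occipital tissue). Frontal calls went from 2 to 1 with the Y-linked covariate, with only the arrays compared and without the arrays that stood apart, and parietal calls from 2 to 0 among the arrays with a high Y-linked level. Over the regions they went to 0 with the covariate and to 4 in 1 fit without the arrays that stood apart, which counted each array as a separate replicate. KO frontal against occipital tissue gave 0 without the intensity trend or with the covariate, and 2 with only the arrays compared. Array weights gave 1 call instead of 0 in occipital KO against WT, WT and KO frontal against parietal tissue, KO parietal against occipital tissue and the frontal against parietal interaction. KO parietal against occipital tissue also gave 1 without the arrays that stood apart. Leaving out 1 replicate gave 1 to 3 calls in frontal, 0 to 1 in occipital tissue, 2 to 3 over the regions, 0 to 2 for WT parietal against occipital and 0 to 1 for KO frontal against occipital tissue. The share of all genes called under each alternative was not computed, so a changed count is not read as a result about the members. The cause was not tested.

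Reversals concerned differences not called. With array weights these were Thsd7b at E14.5 (-0.044), Rprm in WT frontal against parietal tissue (0.11), in KO (-0.053) and in that interaction (-0.16), and Syt6 in KO frontal against occipital tissue (-0.00211). Ntsr1 in frontal KO against WT was 0.036 with array medians subtracted and 0.088 with the covariate, which put Rprm over the regions at -0.051. Without the arrays that stood apart Rprm was 0.016 in WT frontal against occipital, 0.086 in WT frontal against parietal and -0.052 in KO frontal against parietal tissue, and -0.14 in that interaction, and Ntsr1 was 0.017 in KO parietal against occipital tissue. Leaving out 1 replicate, the ranges that crossed 0 were, at E14.5, -0.018 to 0.23 for Syt6, -0.63 to 0.11 for Ntsr1 and -0.033 to 0.15 for Thsd7b. For Ntsr1 they were -0.067 to 0.063 in frontal KO against WT and -0.095 to 0.038 in KO parietal against occipital tissue. For Rprm they were -0.21 to 0.016, -0.095 to 0.086 and -0.20 to 0.028 in WT frontal against occipital, frontal against parietal and parietal against occipital tissue, -0.052 to 0.14 in KO frontal against parietal tissue and -0.036 to 0.18 in that interaction. They were -0.024 to 0.047 for Syt6 in KO frontal against occipital and -0.032 to 0.057 for Thsd7b in occipital KO against WT. The settings with the arrays that stood apart, the high Y-linked level and the single fit over regions, and all such settings for the other layer 6 genes and relatives, were chosen after seeing the data.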

Other observations

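Over the 24 P0.5 arrays, which share genotype and region differences, Syt6 and Thsd7b had a Pearson r of -0.695, and the other 5 pairs of members lay between -0.33 and 0.27. Within groups, after each group's mean was removed, Syt6 and Thsd7b stood at 0.251, and at 0.035 without the arrays that stood apart. Within groups the highest pair was Ntsr1 with Rprm at 0.454, and it was 0.272 without the arrays that stood apart.

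The genes whose signal followed Syt6 most closely were B3glct (r = 0.899), Pappa2 (0.889), Plxna2 (0.883), Btbd11 (0.876) and Trp53i11 (0.866). For Thsd7b they were Acr (0.921), Samd5 (0.908), Egfem1 (0.90), Pofut1 (0.888) and Meg3 (0.877). Ntsr1 was followed by Ccdc57 (0.846), Plcd1 (0.839), Efcab6 (0.825), Klf7 (0.823) and Cacna1i (0.823). Rprm was followed by Sppl3 (0.828), Slitrk5 (0.803), Cabp1 (0.802), Svop (0.797) and Spns1 (0.794). These are descriptions over the same 24 arrays, picked as the highest of all genes measured.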
